A study of Homo sapiens with 6 samples.

Results

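Ribosomes are built in the nucleolus, and the 50 genes described here encode proteins of that process, from RNA polymerase I to the factors that finish the small and large subunits. The genes were taken by name from the count table, and all 50 were found among 60604 genes used. RNA polymerase I transcribes the long precursor of the ribosomal RNAs. Small nucleolar ribonucleoproteins (snoRNPs) then modify it and help to cut it, and large assemblies fold it with ribosomal proteins into the precursors of the small and large subunits. The process is known to be costly for a dividing cell and is commonly raised in carcinoma cells.

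RNA was sequenced from MIA PaCa-2 cells, a long-established line of human pancreatic carcinoma whose genotype is given as WT in the labels. The BP group (3 libraries) received BP, black phosphorus by the title of the series, a form of the element that comes in sheets, at a dose of 12.5 µg/ml. The BP+Huaier group (3 libraries) received the same dose of BP and 10 mg/ml of Huaier, a preparation from a fungus used in traditional medicine, so both groups carry BP, and cells without it were not analysed here. The comparison is that of cells with and without Huaier on top of BP. Neither the treatment time nor the origin of the libraries in separate cultures is given in the sources used here. The p-values are thus relative to how much these libraries varied, which may be technical variation.

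Each library held between 15657593 and 17036565 counts on genes. In the first principal component, BP+Huaier 3 lay at 11.5, between BP+Huaier 1 and 2 at 65.1 and 66.0 and the BP libraries at -50.5 to -43.4. Epithelial keratins were present, with KRT8 at 942 CPM on average in the BP libraries, whereas EPCAM and CDH1 were at 0.089 and 0.072 CPM (the count of a gene scaled to library size, with TMM factors). The summed level of 5 epithelial markers was 1546 to 1718 CPM in BP and 1528 to 3219 CPM in BP+Huaier. Of 18 markers of other cell types PTPRC, CD3E, DCN, LUM, PRSS1, CELA3A, INS and GCG had 0 counts in all libraries. COL1A2, CD14 and CDH5 were detected, at 519, 42.5 and 19.0 CPM in BP and 431, 28.8 and 12.7 CPM in BP+Huaier. COL1A1 was at 1.22 to 1.42 CPM in BP and at 5.19 to 6.43 CPM in BP+Huaier. The part of these differences in the results was not tested.

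With Huaier added, 6 of the 50 nucleolar genes rose and 5 fell by edgeR at an adjusted p under 0.05, and 39 did not pass the test. The rises were POLR1C, POLR1D, FBL, RRP9, NOB1 and BYSL, between 1.42-fold and 1.70-fold. The falls were UTP20, LTV1, POLR1A, UTP14A and UTP3, between 1.49-fold and 2.36-fold. Across all 15022 genes tested, 14.4% were called higher and 15.0% lower, 29.3% together, whereas 22.0% of the nucleolar genes were called in either direction. The difference between these shares was not tested. Without BP+Huaier 3, the library that stood apart, 14 nucleolar genes were called higher and 15 lower, 58.0% together. Of all genes 28.8% were then called higher and 31.0% lower, 59.8% together, so the share rose alike over all genes. The median log2 fold change (BP+Huaier over BP) was -0.027 for the nucleolar genes and -0.020 for all genes tested.

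For 20 of the 50 genes all libraries of one group lay above all of the other, 9 of them higher and 11 lower in BP+Huaier. Among all genes tested 46.8% were separated like this, 21.9% higher and 24.9% lower. Scaling by library size alone in place of TMM moved the median of all genes to -0.28 and gave 0 nucleolar genes higher and 10 lower, so the rises are relative to the TMM scale. Of all genes 7.00% were then higher and 19.7% lower, 26.7% together. The 5 falls were called on both scales. As a share of all counts, the 50 genes made up 0.773 ± 0.020% in BP and 0.646 ± 0.058% in BP+Huaier (SD, n = 3, exact permutation test, two-sided p = 0.1, the smallest this design allows). NPM1 and NCL carried 35.1% to 41.5% of these counts. With library size alone the median log2 fold change was -0.29 for the 50 genes and -0.28 for all genes, so a lower share was not particular to the 50. The libraries are bulk RNA, so a lower share of cells with a transcript and less of it per cell cannot be told apart.

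**Figure D1:**
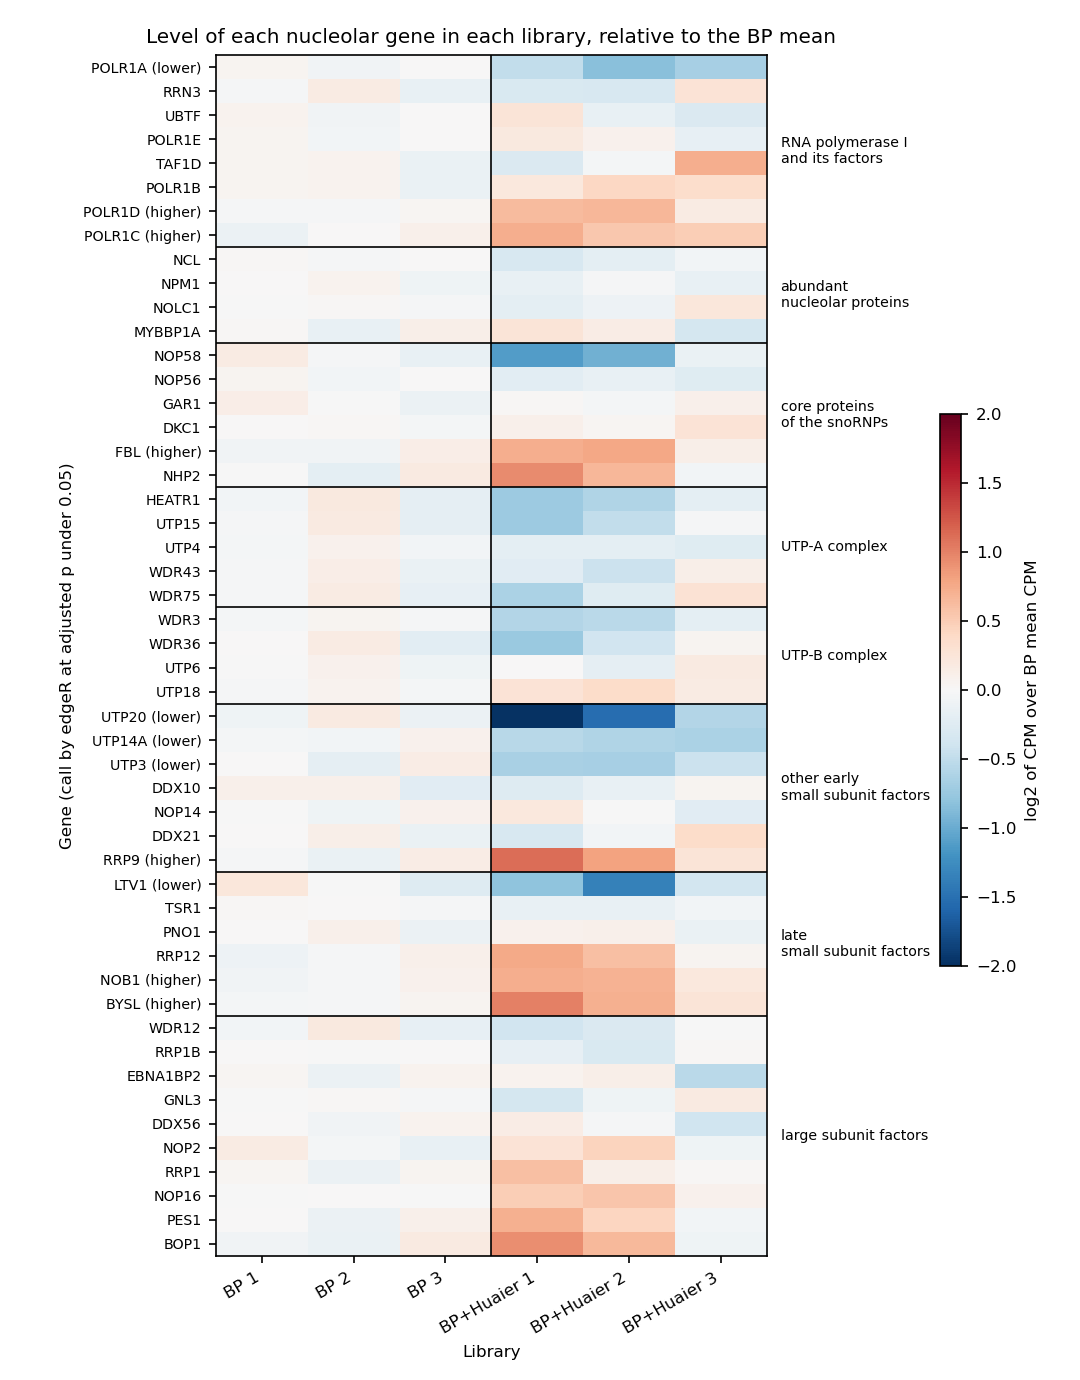
Level of each of the 50 genes in each of the 6 libraries, as the log2 of its CPM over the mean CPM of the BP libraries, with rows grouped by role and calls by edgeR marked beside the name. The 6 called rises and 5 called falls are spread over several roles, and BP+Huaier 3 is paler than BP+Huaier 1 and 2 in 9 of the 11 called rows.

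The start regions of called genes that went opposite ways held the same short motif. The E-box CACGTG, which reads the same on both strands and is known as a site of basic helix-loop-helix factors, was searched from 250 bases before to 50 bases after each gene's start in RefSeq (GRCh38.p14). Of the 50 genes, 44 had an entry, and 18 of these (40.9%) held the motif, against 12.5% of 10830 tested genes and 8.77% of all 27305 genes of the table. Among called genes it was in 3 of 6 that rose (FBL, RRP9 and BYSL) and in 3 of 5 that fell (UTP20, UTP14A and LTV1). It was in 12 of 33 genes that were not called. The motif was therefore shared by genes of both directions, and a match is a description of the letters. The 4 regions below, a pair that rose and a pair that fell, are shown for where the motif stands, with the E-box in capitals, 5′ to 3′ on the strand of the gene. They are chr19:39846330-39846629 on the minus strand for FBL, chr3:51941855-51942154 on the minus strand for RRP9, chr12:101279855-101280154 on the plus strand for UTP20 and chr6:143843088-143843387 on the plus strand for LTV1.
FBL: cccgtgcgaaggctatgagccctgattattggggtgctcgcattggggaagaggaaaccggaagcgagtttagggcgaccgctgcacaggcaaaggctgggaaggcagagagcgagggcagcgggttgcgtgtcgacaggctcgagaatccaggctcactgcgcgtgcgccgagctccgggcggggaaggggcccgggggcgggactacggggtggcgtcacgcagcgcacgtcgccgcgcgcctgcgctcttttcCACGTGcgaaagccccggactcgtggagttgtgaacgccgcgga
RRP9: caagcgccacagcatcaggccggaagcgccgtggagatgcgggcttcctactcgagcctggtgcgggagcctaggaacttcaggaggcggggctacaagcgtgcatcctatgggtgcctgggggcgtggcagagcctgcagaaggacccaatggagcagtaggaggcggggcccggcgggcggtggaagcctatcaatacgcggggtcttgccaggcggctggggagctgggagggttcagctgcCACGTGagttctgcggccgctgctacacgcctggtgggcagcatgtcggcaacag
UTP20: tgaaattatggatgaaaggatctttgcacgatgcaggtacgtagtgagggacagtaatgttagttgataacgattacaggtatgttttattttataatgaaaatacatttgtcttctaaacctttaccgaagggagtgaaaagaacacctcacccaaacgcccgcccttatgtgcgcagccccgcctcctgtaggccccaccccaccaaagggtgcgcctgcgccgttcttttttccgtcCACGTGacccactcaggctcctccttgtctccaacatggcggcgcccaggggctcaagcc
LTV1: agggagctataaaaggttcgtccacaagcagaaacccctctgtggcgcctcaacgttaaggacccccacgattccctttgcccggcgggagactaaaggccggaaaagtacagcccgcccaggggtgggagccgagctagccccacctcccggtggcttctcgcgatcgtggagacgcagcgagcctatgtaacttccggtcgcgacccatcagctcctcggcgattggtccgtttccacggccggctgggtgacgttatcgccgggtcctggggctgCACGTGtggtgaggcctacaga
In these 300-base windows the motif begins at base 257 in FBL, 246 in RRP9, 241 in UTP20 and 279 in LTV1, counted from 1 at the 5′ end. In the other called genes with the motif it begins at base 279 in BYSL and at base 10 in UTP14A, so it stands near the start in 5 of these 6 genes and far before it in UTP14A.

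Among the subunits of RNA polymerase I, the catalytic subunit fell while the platform subunits that RNA polymerase I shares with RNA polymerase III rose. POLR1A (ENSG00000068654.17, GRCh38 chromosome 2, 86020216 to 86106155), the largest subunit, was at 137, 125 and 132 CPM in the BP libraries and at 93.3, 73.4 and 83.0 CPM in the BP+Huaier libraries. Every BP+Huaier value lay below every BP value. The change was 1.58-fold lower, or -0.66 ± 0.14 on the log2 scale (SE, adjusted p = 0.0091 by edgeR), the smallest adjusted p of the 50 genes. POLR1A shared no exon base with another gene.

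POLR1C (ENSG00000171453.20, chromosome 6, 43509702 to 43562419), a platform subunit, was at 22.5, 24.5 and 26.0 CPM in BP and at 40.4, 35.2 and 34.2 CPM in BP+Huaier. The groups did not overlap, and the rise was 1.51-fold (log2 0.59 ± 0.14, edgeR adjusted p = 0.015). Its partner POLR1D was at 103, 103 and 107 CPM in BP and at 161, 166 and 118 CPM in BP+Huaier, a rise of 1.42-fold (edgeR adjusted p = 0.041). For POLR1D the BP+Huaier 3 value stood nearest to BP. Of the exon bases of POLR1C 18.3% were shared with 4 genes on the opposite strand. Their mean counts were 2312 (XPO5), 1365.5 (YIPF3), 114.5 (LRRC73) and 1.33 (ENSG00000271754), against 493 for POLR1C. It is unknown whether reads were counted by strand, so its level is uncertain. The share of bases does not give the size of that uncertainty.

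POLR1B, the other large subunit of the active centre, was at 79.3, 80.7 and 69.6 CPM in BP and at 88.2, 102 and 97.6 CPM in BP+Huaier. The groups did not overlap but the difference missed the threshold (log2 0.33 ± 0.13, edgeR adjusted p = 0.091). The ratio of POLR1A to POLR1B, each per kilobase of exon, was 0.789, 0.710 and 0.869 in BP and 0.484, 0.328 and 0.389 in BP+Huaier. The ratio of POLR1C to POLR1A was 0.663 ± 0.065 in BP and 1.58 ± 0.13 in BP+Huaier (SD, n = 3). Both ratios separated the groups in all 6 libraries, BP+Huaier 3 included, and a ratio within a library does not depend on its scaling. Each had an exact two-sided permutation p of 0.1, the smallest possible with 3 against 3, and 0.2 after adjustment over the 6 ratios computed. These pairs were chosen after their values were seen.

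UBTF, RRN3 and TAF1D, which bring the polymerase to its promoter, gave no call. UBTF, the architectural protein of the ribosomal DNA promoter, was at 118, 107 and 113 CPM in BP and at 134, 101 and 92.7 CPM in BP+Huaier, and the groups overlapped (log2 -0.044 ± 0.16, edgeR adjusted p = 0.85). RRN3, which links the polymerase to the promoter complex, was at 69.0, 78.1 and 63.0 CPM in BP and at 56.7, 56.1 and 84.7 CPM in BP+Huaier (edgeR adjusted p = 0.74). Its highest value was in BP+Huaier 3, the opposite of BP+Huaier 1 and 2. Counts on 4 RRN3 pseudogenes came to 5.30% to 8.83% of those on RRN3, and how the counting treated reads that fit several places is not given.

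TAF1D, a subunit of the promoter selectivity complex SL1, was also highest in BP+Huaier 3. It was at 59.6, 71.3 and 121 CPM in BP+Huaier against 66.7 to 76.9 CPM in BP, so BP+Huaier 2 lay within the BP range. POLR1E, a subunit particular to RNA polymerase I, was at 39.3 ± 1.5 and 40.7 ± 5.0 CPM (SD, n = 3). Neither passed the test. In the list of 13 further subunits and promoter factors, POLR2H, a subunit common to the nuclear polymerases, rose 1.42-fold and the SL1 subunit TAF1B fell 1.50-fold. The other 11 were not called, so 15.4% of the list was called when 29.3% of all genes were. Its median log2 fold change was 0.23, but -0.047 with library size alone.

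RNA polymerase III, which makes transfer RNAs and the shortest ribosomal RNA and contains POLR1C and POLR1D, also had genes called both ways. Of 11 subunits particular to it, POLR3D and POLR3K rose, 1.96-fold and 2.02-fold. POLR3B, its second largest subunit, and POLR3C fell, 2.43-fold and 2.06-fold, with edgeR adjusted p values of the 4 between 0.0016 and 0.0066. The 4 were 36.4% of the 11, when 29.3% of all genes were called. POLR3D went from 65.9 to 129 CPM and POLR3C from 35.0 to 16.9 CPM on average.

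**Figure D2:**
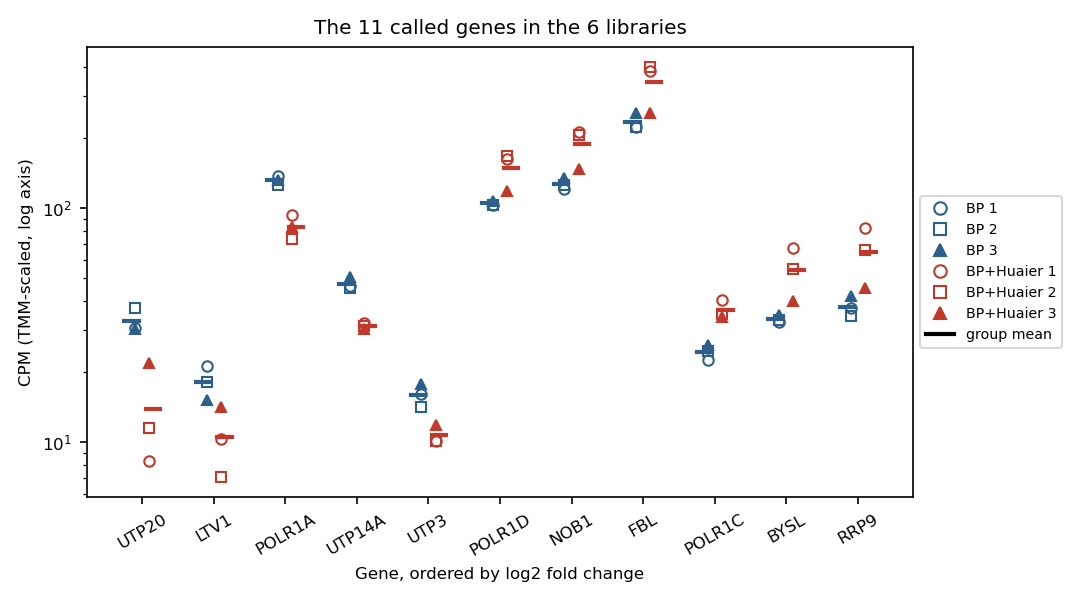
CPM (TMM-scaled, log axis) of the 11 called genes in the 6 libraries, with group means as bars and symbols for the replicate numbers. The BP+Huaier 3 triangle lies nearer to the BP values than BP+Huaier 1 and 2 for 9 genes, and POLR1A and UTP14A are the exceptions.

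The 4 abundant nucleolar proteins gave no call in the main test. NPM1, a histone chaperone and structural protein of the outer nucleolus, had 2055, 2161 and 1944 CPM in BP and 1850, 2024 and 1845 CPM in BP+Huaier (log2 -0.11 ± 0.14, edgeR adjusted p = 0.59). The groups overlapped. NCL, nucleolin, was at 838, 813 and 826 CPM in BP and at 660, 722 and 797 CPM in BP+Huaier. All 3 BP+Huaier values were lower than the BP values, but the difference did not pass (log2 -0.19 ± 0.14, edgeR adjusted p = 0.33). NPM1 and NCL together carried 35.1% to 41.5% of the counts on the 50 genes. NOLC1, a chaperone of snoRNPs, was at 230 ± 3.9 and 229 ± 37 CPM, and MYBBP1A, a nucleolar partner of several transcription factors, at 228 ± 21 and 234 ± 49 CPM (SD, n = 3). Of these 4 genes edgeR, DESeq2 and limma-voom each called 0, and 0 had an unadjusted p under 0.05 by edgeR. With library size alone NPM1 was called lower, when 19.7% of all genes were. Without BP+Huaier 3 NCL was called lower, when 31.0% of all genes were. DESeq2 called 34.6% and limma-voom 31.3% of all genes, and 32.0% and 26.0% of the 50. Per kilobase of exon NPM1 had the highest mean of the 50 genes in BP, at 247 CPM, against a median of 15.7.

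The snoRNP cores carry the enzymes that modify ribosomal RNA. FBL (ENSG00000105202.9, chromosome 19, 39834458 to 39846379), the fibrillarin methyltransferase of box C/D particles, was at 221, 223 and 255 CPM in BP and at 386, 398 and 253 CPM in BP+Huaier. BP+Huaier 1 and 2 were high, while BP+Huaier 3 lay just below the highest BP library. The rise was 1.49-fold (log2 0.57 ± 0.19, edgeR adjusted p = 0.048), and FBL was the called gene whose groups overlapped. Its scaffold partners in the same particles were not called. NOP58 was at 50.1, 44.2 and 40.5 CPM in BP and at 20.7, 23.1 and 41.1 CPM in BP+Huaier (log2 -0.66 ± 0.25, edgeR adjusted p = 0.074), and it was called lower by DESeq2 and limma-voom. NOP56 was at 151, 140 and 147 CPM and at 127, 132 and 124 CPM, with no overlap and no call (edgeR adjusted p = 0.25).

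The ratio of FBL to NOP58 per kilobase of exon was 6.76, 7.72 and 9.64 in BP. In BP+Huaier it was 28.6 and 26.4 in libraries 1 and 2 and 9.43 in library 3 (exact two-sided permutation p = 0.2, 0.3 adjusted over the 6 ratios). In the box H/ACA particles DKC1, the pseudouridine synthase, was at 146, 148 and 141 CPM in BP and at 156, 148 and 174 CPM in BP+Huaier and was not called. NHP2 was at 82.2 ± 10.8 and 122 ± 40 CPM (SD, n = 3, edgeR adjusted p = 0.097), and 28.9% of its exon bases overlapped RMND5B on the opposite strand. GAR1 was at 14.7 ± 1.3 and 15.0 ± 0.7 CPM. Among 13 other snoRNP and assembly factors SNU13, a box C/D protein, rose 1.40-fold and TGS1, which modifies the cap of small RNAs, fell 2.19-fold. These were 15.4% of the 13, when 29.3% of all genes were called.

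The UTP-A complex is among the first to bind the growing precursor RNA. All 5 of its genes in this role group had a log2 fold change below 0, from -0.49 for HEATR1 to -0.14 for WDR75. By edgeR or limma-voom 0 of 5 were called, when these called 29.3% and 31.3% of all genes. After the GC trend described further on was removed, WDR43 and WDR75 were at 0.0080 and 0.050. One, HEATR1, had an unadjusted p under 0.05, and DESeq2 called it lower. HEATR1 was at 128, 152 and 117 CPM in BP and at 80.3, 87.7 and 115 CPM in BP+Huaier (edgeR adjusted p = 0.063). LGALS8, on the opposite strand, covered 23.1% of its exon bases. UTP4 was at 87.6 ± 4.4 and 75.7 ± 1.1 CPM with no overlap, UTP15 at 29.9 ± 3.8 and 22.9 ± 6.0 CPM, WDR43 at 85.2 ± 8.0 and 76.0 ± 14.7 CPM and WDR75 at 64.4 ± 7.6 and 58.4 ± 19.1 CPM (SD, n = 3). BP+Huaier 3 was the highest BP+Huaier library for each of them except UTP4.

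The UTP-B complex joins next, and 4 of its genes were in this role group. Among these 4, WDR3 had the lowest log2 fold change and UTP18 the highest. WDR3 was at 65.4, 69.4 and 66.1 CPM in BP and at 44.7, 46.3 and 58.3 CPM in BP+Huaier (log2 -0.43 ± 0.15, edgeR adjusted p = 0.053), and DESeq2 and limma-voom called it lower. UTP18 was at 78.9 ± 3.2 and 95.2 ± 6.5 CPM (log2 0.27, edgeR adjusted p = 0.13) and also did not overlap. WDR36 (log2 -0.32) and UTP6 (0.015) overlapped. By edgeR 0 of the 4 were called, when 29.3% of all genes were, and 1 had an unadjusted p under 0.05.

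Of 7 other early small subunit factors 3 fell and 1 rose, 57.1% of a small group when 29.3% of all genes were called. UTP20 (ENSG00000120800.5, chromosome 12, 101280105 to 101386618), a very long repeat protein of the small subunit precursor, was at 30.8, 37.2 and 30.4 CPM in BP and at 8.31, 11.5 and 21.7 CPM in BP+Huaier. This was the largest change among the 50 genes by edgeR, 2.36-fold lower (log2 -1.24 ± 0.31, adjusted p = 0.018). All BP+Huaier values were below BP, and BP+Huaier 3 was nearest to it. UTP14A (ENSG00000156697.13, chromosome X, 129906121 to 129929761), a cofactor of the helicase DHX37, was at 46.4, 45.5 and 50.7 CPM in BP and at 32.2, 31.3 and 30.5 CPM in BP+Huaier. The BP+Huaier libraries lay close together here, and the fall was 1.52-fold (log2 -0.60 ± 0.13, edgeR adjusted p = 0.010).

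UTP3 was at 16.0, 14.1 and 17.7 CPM in BP and at 10.1, 10.0 and 11.8 CPM in BP+Huaier, 1.49-fold lower (edgeR adjusted p = 0.030). RRP9 (ENSG00000114767.7, chromosome 3, 51933429 to 51941904), the protein that marks the U3 snoRNP, went the other way. It was at 37.3, 34.4 and 41.9 CPM in BP and at 81.9, 66.1 and 45.5 CPM in BP+Huaier, the largest rise among the 50 genes at 1.70-fold (log2 0.77 ± 0.21, edgeR adjusted p = 0.026). BP+Huaier 3 lay just above the highest BP value. The helicases DDX10 (52.0 and 48.2 CPM) and DDX21 (260 and 264 CPM) and the scaffold NOP14 (55.8 and 55.9 CPM) overlapped between groups. NOP14 exons overlapped NOP14-AS1 over 20.7% of their bases.

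Late factors of the small subunit act in its last folding, export and trimming. NOB1, the endonuclease that makes the final cut of the small subunit RNA, was at 121, 125 and 135 CPM in BP and at 211, 205 and 147 CPM in BP+Huaier, a rise of 1.48-fold (edgeR adjusted p = 0.032). BYSL, bystin, a protein of the small subunit precursor, was at 32.6, 33.2 and 34.9 CPM in BP and at 67.5, 54.8 and 40.2 CPM in BP+Huaier, a rise of 1.61-fold (edgeR adjusted p = 0.026). For both genes the groups did not overlap, and BP+Huaier 3 was nearest to BP. LTV1, which leaves the precursor late in its maturation, was at 21.1, 18.1 and 15.1 CPM in BP and at 10.3, 7.09 and 14.1 CPM in BP+Huaier. It fell 1.72-fold (edgeR adjusted p = 0.045), with BP+Huaier 3 just below the lowest BP library. Of the exon bases of LTV1 27.6% were shared on the same strand with ENSG00000280148, which had 0 counts, and 20.4% of those of NOB1 lay opposite NQO1-DT, so both levels are uncertain to that extent.

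PNO1, the partner of NOB1, was not called, at 33.3 ± 2.4 and 33.9 ± 3.1 CPM (SD, n = 3, edgeR adjusted p = 0.92). RRP12, an export factor, was at 82.5, 86.9 and 95.0 CPM and at 149, 133 and 91.1 CPM (edgeR adjusted p = 0.073). TSR1 was at 82.1 ± 1.5 and 75.6 ± 3.0 CPM, without overlap and without a call. In the list of 41 other small subunit factors AATF, IMP4 and RCL1 rose, 1.39-fold to 1.47-fold, and DDX52 and BMS1, a GTPase, fell 1.87-fold and 1.51-fold. These calls made up 12.2% of the 41, against 29.3% of all genes. The median log2 fold change of that list was 0.078, but -0.19 with library size alone and -0.012 with at least 5 CPM. The medians of all genes in these fits were -0.020, -0.28 and -0.0094.

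None of the 10 large subunit factors was called by edgeR, DESeq2 or limma-voom (0 of 10 each), and 2 had an unadjusted p under 0.05 by edgeR. These tools called 29.3%, 34.6% and 31.3% of all genes. BOP1, PES1 and WDR12 form one complex needed for large subunit RNA processing. BOP1 was at 155, 149 and 183 CPM in BP and at 310, 255 and 152 CPM in BP+Huaier (log2 0.56 ± 0.24, edgeR adjusted p = 0.11). PES1 was at 105, 96.2 and 112 CPM and at 171, 140 and 101 CPM (adjusted p = 0.15 by edgeR). For both, BP+Huaier 1 and 2 were above all BP libraries and BP+Huaier 3 was not. WDR12 was at 56.6, 66.9 and 52.0 CPM and at 45.1, 47.8 and 58.4 CPM, the reverse pattern (log2 -0.21 ± 0.16, edgeR adjusted p = 0.33).

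NOP16 was at 39.5, 40.0 and 39.2 CPM in BP and at 55.5, 57.9 and 42.2 CPM in BP+Huaier, without overlap (edgeR adjusted p = 0.084). RRP1, RRP1B, EBNA1BP2, the GTPase GNL3 and the helicase DDX56 had log2 fold changes of 0.27, -0.14, -0.088, -0.072 and -0.071, and their groups overlapped. NOP2, a methyltransferase of large subunit RNA, had 0.981 ± 0.108 and 1.15 ± 0.21 CPM (SD, n = 3), the lowest level of the 50 genes. Of its exon bases 54.4% were shared on the same strand with a gene listed at 0 counts, ENSG00000285238. In these files 20 of 20 snoRNA genes that lie inside exons of a host among the 50 also had 0 counts in every library, against 1 of 14 outside such exons. The level of NOP2 is therefore uncertain. It counts among the genes that were not called. Among 55 other large subunit factors 5 rose, with CCDC86, DDX54 and DDX24 the largest at 1.79-fold, 1.65-fold and 1.45-fold, and 5 fell. The largest falls were those of MDN1, a giant ATPase that removes assembly factors, at 1.98-fold, SDAD1 at 1.91-fold and RRP15 at 1.82-fold. The calls made up 18.2% of the 55, against 29.3% of all genes.

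**Figure D3:**
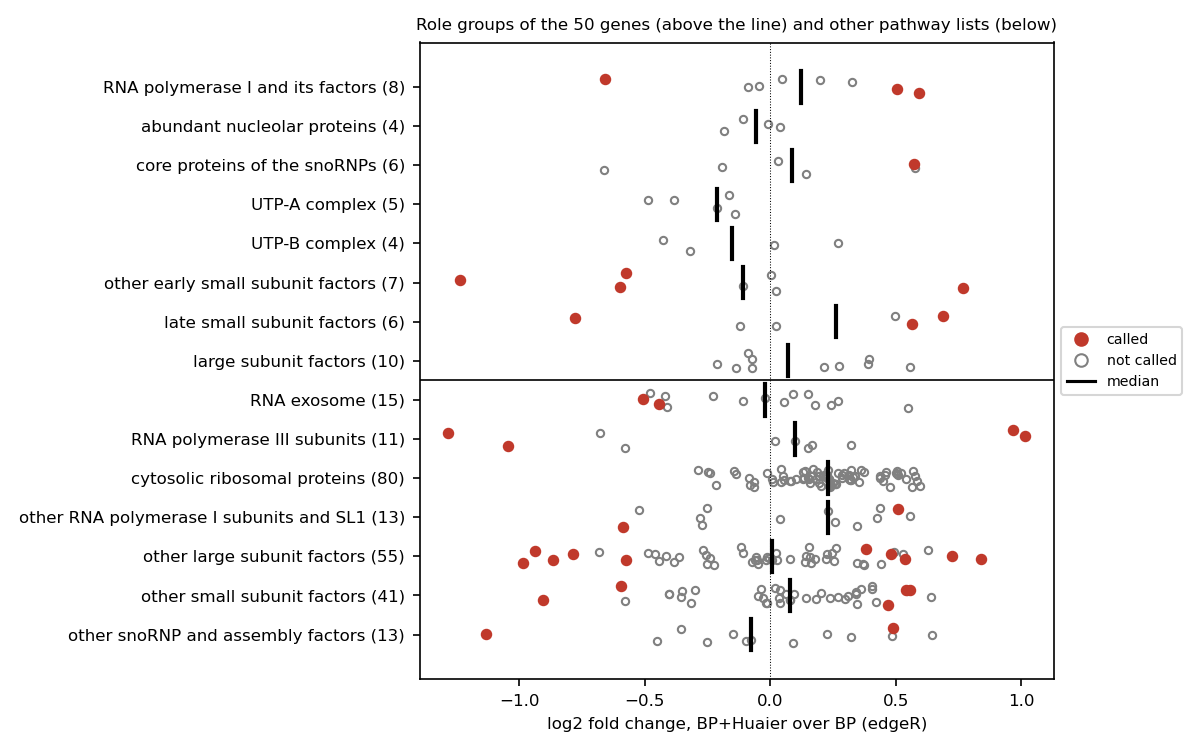
Log2 fold change (BP+Huaier over BP, edgeR) of each gene in the role groups of the 50 genes, above the line, and in other lists of the pathway, below it, with called genes filled and medians as bars and the number of genes in brackets. Called genes lie on both sides of 0 in 3 of the 8 role groups, and the 80 ribosomal protein genes have a median of 0.23 and 0 calls.

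The genes of the exosome and of the ribosomal proteins were tested one by one as further lists of the pathway. The RNA exosome trims precursor RNA among other tasks. Of 15 of its subunits and cofactors 0 rose and DIS3L and EXOSC2 fell, 1.42-fold and 1.36-fold. The calls were 13.3% of this list, against 29.3% of all genes. Of 80 genes of cytosolic ribosomal proteins, the end users of this pathway, 0 were called by edgeR or limma-voom and 2 by DESeq2, both higher, and 3 had an unadjusted p under 0.05 by edgeR. Their median log2 fold change was 0.23, with 69 of 80 above 0, against -0.020 for all genes, of which 7318 of 15022 were above 0. With library size alone the medians were -0.054 for these genes and -0.28 for all genes. In that fit 5 of the 80 were called lower, when 19.7% of all genes were. Without BP+Huaier 3, 59 of the 80 were called higher, when 28.8% of all genes were.

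The number of calls depended on each library. Without BP+Huaier 3, 14 of the 50 nucleolar genes were higher and 15 lower, when 59.8% of all genes were called, and all 11 calls were kept. The added rises were BOP1, NHP2, NOP16, PES1, POLR1B, RRP1, RRP12 and UTP18, and the added falls were HEATR1, NCL, NOP58, RRN3, UTP15, WDR12, WDR3, WDR36, WDR43 and WDR75. Without any other library few calls were left, and calls over all genes fell as well. There were 0 higher and 0 lower without BP 1, 0 and 2 without BP 2, 1 and 0 without BP 3, 1 and 3 without BP+Huaier 1, and 1 and 0 without BP+Huaier 2. Of all genes 11.2%, 11.6%, 13.4%, 23.2% and 12.6% were called in these 5 fits, in the same order. The log2 fold changes stayed between -0.74 and -0.56 for POLR1A, -1.72 and -0.97 for UTP20 and 0.47 and 0.76 for FBL over the 6 omissions. POLR1A was called without BP 2, BP+Huaier 1 or BP+Huaier 3 and had an edgeR adjusted p of 0.055 to 0.060 without the other 3 libraries. POLR1C was called without BP 3 and without each BP+Huaier library, and its edgeR adjusted p was 0.096 without BP 1 and 0.070 without BP 2. UTP14A was called without BP 2, BP+Huaier 1 or BP+Huaier 3, and otherwise had an edgeR adjusted p of 0.051 to 0.067. UTP20 was called without BP+Huaier 1 or BP+Huaier 3, and otherwise had an edgeR adjusted p of 0.051 to 0.085. The calls of POLR1D, FBL, RRP9, NOB1, BYSL, LTV1 and UTP3 were kept without BP+Huaier 3 and lost without each of the other 5 libraries, with edgeR adjusted p values up to 0.17. None of the 11 changed direction in any of the 17 alternatives.

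The base composition of the transcripts varied with the direction. The median GC content of the longest transcript was 54.4% for the 6 that rose, 44.8% for the 5 that fell and 47.5% for all 50 genes, and the ranges of risers (45.6% to 60.9%) and fallers (41.7% to 51.7%) overlapped. Across the 50 genes, which share their libraries, the log2 fold change correlated with GC content at r = 0.57, against r = 0.26 across 14896 tested genes with a value. Libraries of 1 group also differed this way. Over the same 50 genes, the correlation of GC content with the log2 ratio of a library to the mean of the BP group was -0.78 in BP 2 and 0.78 in BP 3. It was 0.74, 0.60 and -0.17 in BP+Huaier 1, 2 and 3. Each BP library is part of that mean, and a correlation does not give the size. The median absolute log2 ratio was 0.074 in BP 2 and 0.098 in BP 3, against 0.33, 0.34 and 0.19 in BP+Huaier 1, 2 and 3. Once each library had been corrected for a trend in GC content and transcript length, r was 0.14 and 10 of the 11 genes were still called, with LTV1 the exception. POLR1B, NHP2, NOP16, TAF1D and UTP18 were then also higher and NOP56 and DDX56 lower, 11 and 6 in all, or 34.0% of the 50 when 39.0% of all genes were called.

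**Figure D4:**
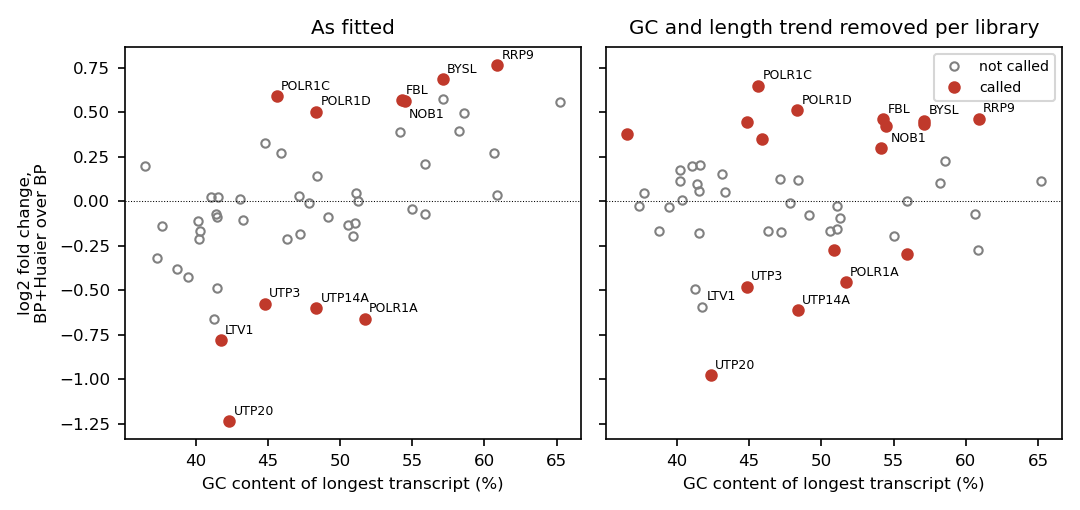
Log2 fold change (BP+Huaier over BP) of the 50 genes against the GC content of their longest transcript, as fitted (left) and after correction of each library for GC content and length (right), with called genes filled and the 11 calls of the first fit named. The slope seen on the left (r = 0.57) is mostly gone on the right (r = 0.14), while 10 of the 11 named genes remain called.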

How the data were processed

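RNA of 3 BP and 3 BP+Huaier libraries was sequenced. TRIzol was used for extraction and a NEBNext Ultra kit for the libraries, read as 150 bp pairs, per the labels' protocols. The genome build was GRCh38, and featureCounts 1.6.1, HISAT2 2.1.0 and fastp 0.20.0 were used, per the submitters' processing notes. How reads were assigned by strand, at several places or in overlapping genes is unknown here, and so is the annotation. The authors deposited raw counts of reads for every gene (whole numbers, as the values show). Lines of 1 gene were broken and 44 second copies on the Y chromosome were left out. For 99.77% of the genes a reference table of names gave a symbol. Genes encoded in mitochondria had 0 counts in all libraries, so they gave no measure of RNA quality.

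The main test was that of edgeR 4.0.16 in R 4.3.3 (filterByExpr, TMM, robust quasi-likelihood test, group as the only term, Benjamini-Hochberg adjustment over all 15022 genes tested, calls at an adjusted p under 0.05). CPM values are scaled by TMM, and 3 counts corresponded to 0.160 to 0.222 CPM. Levels compared between genes are divided by the exon length. Standard errors are those implied by the test. No libraries were duplicates, since pairs varied by 3.71 to 9.85 times the sampling variance in BP and by 17.6 to 77.9 times in BP+Huaier.

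Alternatives were DESeq2 size factors, library size alone, DESeq2 1.42.0, limma-voom (limma 3.58.1) with a shared or a separate spread per group, the replicate number as a block, a spline correction for GC content and length (longest transcript, GENCODE release 29), both of these at once, a filter of at least 5 CPM or none, only genes that code for proteins, each library left out, and an adjusted p under 0.01. Values in every library are given for the called genes and a fixed set of core genes, and others are given by mean and SD or by log2 fold change. The genes, role groups and lists were chosen with earlier results of these data known. No role group or list was tested as a set, and their counts stand against 29.3% of all genes called by edgeR. Some values, such as 6 ratios between genes, were chosen after they were seen. The steps were tested on simulated counts. Plots used matplotlib 3.10.9 (Python 3.11.15). Protein sequences were not used here.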

Additional observations from a re-analysis of the deposited data

How the results depend on the processing

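The 11 called genes kept their direction in every alternative run. Counts of nucleolar genes called higher and lower, 6 and 5 as reported, were 0 and 10 with library size alone, 0 and 3 with the replicate block, and 0 and 1 at an adjusted p under 0.01. DESeq2 gave 8 lower, and 11 were higher after GC and length correction. Leaving out 1 library gave 0 to 14 higher and 0 to 15 lower. The median log2 fold change of the 50 genes was 0.0033 with DESeq2 size factors, -0.29 with library size alone, 0.0034 by DESeq2, 0.0097 with no filter, -0.14 with at least 5 CPM and -0.078 with protein-coding genes. It was 0.029 after GC and length correction, 0.020 with the block as well, and -0.071 to 0.0077 without 1 library. The median of all genes was -0.28 with library size alone. The cause of these shifts was not tested. Over all genes, 2160 higher and 2246 lower as reported, 1051 were higher with library size alone, 1357 with the block and 826 at 0.01, and 1373 were lower with at least 5 CPM, where fewer genes were tested, and 810 at 0.01. Without 1 library 810 to 4452 were higher and 909 to 4793 lower.

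Genes that changed sign in an alternative were all uncalled as reported. With library size alone the log2 fold changes of POLR1E, TAF1D, MYBBP1A, DKC1, GAR1, UTP6, NOP14, DDX21, PNO1, NOP2 and RRP1 were -0.23, -0.024, -0.25, -0.11, -0.23, -0.24, -0.27, -0.21, -0.25, -0.058 and -0.0042. With at least 5 CPM those of POLR1E, MYBBP1A, GAR1, UTP6, NOP14, DDX21 and PNO1 were -0.043, -0.057, -0.059, -0.071, -0.090, -0.060 and -0.069, and with protein-coding genes -0.0056, -0.018, -0.022, -0.035, -0.052, -0.025 and -0.031. After GC and length correction POLR1E, RRN3, NPM1, MYBBP1A, WDR43, WDR75, NOP14, DDX10, NOP2, WDR12, RRP1 and GNL3 were at -0.024, 0.058, 0.055, -0.27, 0.0080, 0.050, -0.092, 0.18, -5.9e-05, 0.12, -0.069 and 0.10. With the block as well POLR1E, RRN3, NPM1, MYBBP1A, WDR43, WDR75, NOP14, DDX10, WDR12, RRP1 and GNL3 were at -0.024, 0.050, 0.052, -0.28, 0.00080, 0.037, -0.095, 0.18, 0.12, -0.075 and 0.095. NOLC1 was at 0.020 with DESeq2 size factors, 0.020 by DESeq2 and 0.025 with no filter. NOP14 and DDX21 were at -0.0078 and -0.0032 by limma-voom, -0.0085 and -0.0017 with a separate spread per group, and -0.0061 and -0.0031 with the replicate block. Without 1 library the ranges were -0.023 to 0.15 for POLR1E, -0.21 to 0.073 for UBTF, -0.30 to 0.026 for RRN3, -0.15 to 0.40 for TAF1D, -0.14 to 0.082 for NOLC1, -0.073 to 0.21 for MYBBP1A, -0.0025 to 0.10 for GAR1, -0.42 to 0.060 for WDR75, -0.069 to 0.12 for UTP6, -0.11 to 0.12 for NOP14, -0.17 to 0.17 for DDX21, -0.0064 to 0.11 for PNO1, -0.19 to 0.11 for EBNA1BP2, -0.20 to 0.055 for GNL3 and -0.19 to 0.080 for DDX56.

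No pairing by the shared replicate numbers was seen, but with 3 libraries a group that also differed in GC trend this check cannot decide it. Deviations from the group means of same-numbered libraries correlated at 0.0085, -0.056 and -0.28, and no library correlated best with its own number. With the replicate block 0 nucleolar genes were higher and 3 lower (POLR1A, UTP14A and UTP20), when 20.6% of all genes were called. At this depth NOP2 had the fewest counts of the 50 genes, and 3 libraries a group limit what can pass.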

Other observations

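The table also held transcripts of the ribosomal RNA genes themselves, in small numbers. RNA5-8SN1, a copy of the gene for the short RNA of the large subunit that RNA polymerase I makes, had 25, 25 and 13 counts in the BP libraries and 5, 7 and 5 counts in the BP+Huaier libraries. The groups did not overlap, and the log2 fold change was -1.60 ± 0.43 (SE, edgeR adjusted p = 0.025, range 0.018 to 0.11 over 15 alternatives). Of all genes tested 15.0% were called lower, and 24.9% were separated in that direction. The call was lost without BP 1, BP 2, BP+Huaier 1 or BP+Huaier 2, with the replicate block and with a separate spread per group. A second copy, RNA5-8SN3, had 9, 8 and 9 counts in BP and 0, 8 and 1 counts in BP+Huaier, and RNA5-8SN2, another copy, had 0 in all libraries. The copies are nearly identical and reads can be shared between them, and this gene was looked at after the files were read, so its values are a description of few counts. Whether these counts follow the making of ribosomal RNA was not tested. Of 14 snoRNA genes that lie within a nucleolar gene but outside its exons, 13 had counts, with at most 16 in a library (SNORD6, in TAF1D).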
